A study of Danio rerio with 75 samples.

Results

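Skin of male zebrafish (Danio rerio) was compared between the ages of 24 and 6 months by RNA sequencing. The comparison took every library labelled as skin of these ages, 5 of 24 months and 5 of 6 months, which are 10 of the 73 libraries of the series that could be put in a group of tissue and age. The series followed brain, liver and skin at 5 ages between 6 and 42 months. Both groups were labelled with the strain AB JxTu and with no transgene, and each library was made from the skin of 1 fish. The fish of 6 months replicate 3 also gave tissue to a library labelled Tg(wt1a:GFP), so that the labels of this fish conflict. Per the methods, fish were killed between noon and early afternoon. The labels give no hour for a fish. Libraries of 12 months carry the reporter Tg(flk:mCherry), those of 36 months Tg(pu.1:GFP) and those of 42 months Tg(wt1a:GFP). They are given only beside the comparison, since line and age cannot be told apart there.

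The skin of a fish is a living mucosal surface. A stratified epidermis of keratinocytes, with mucous cells, ionocytes and immune cells among them, lies on a basement membrane, and under it a collagen-rich dermis holds scales, pigment cells, vessels and nerves. The epidermis is renewed by division of its basal cells throughout life. Retinoic acid, growth factors and transcription factors of the AP-1 and Kruppel-like families are known regulators of how keratinocytes divide and mature.

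The 10 libraries held from 32925263 counts (24 months replicate 4) to 38532966 counts (6 months replicate 4). The level of a gene is given as CPM, counts scaled to an equal library size, after TMM normalisation, a scaling that takes differences in library composition into account. Levels are listed in the order of replicates 1 to 5. Genes that mark keratinocytes were high in all 10 libraries, with krt5 at 10444 to 13464 RPKM (reads scaled to transcript length and library size) at 6 months and 12636 to 19255 RPKM at 24 months. Markers of dermis, scale and pigment cells were also present. Of these, the pigment gene dct did not exceed 0.62 RPKM and the scale gene sp7 did not exceed 2.43 RPKM. The neuronal gene elavl3 did not exceed 0.356 RPKM. Another gene of brain, snap25a, reached 4.11 RPKM at 6 months and 3.45 RPKM at 24 months. Transcripts of skeletal muscle were abundant, however, with ckma at 2045 to 5034 RPKM at 6 months and 1168 to 3825 RPKM at 24 months. The summed level of 80 muscle genes was 32551 to 72791 CPM at 6 months and 18319.5 to 62231 CPM at 24 months. The liver gene fabp10a reached 1628 RPKM in the library of 24 months replicate 3, in which 41 genes of liver, pancreas and intestine summed to 10340 CPM, against 203 to 477 CPM in the other libraries of 24 months and 162 to 1534 CPM at 6 months. Pearson correlations of log2 CPM were 0.937 to 0.965 between libraries of 6 months, 0.938 to 0.965 between those of 24 months and 0.906 to 0.944 between libraries of different age. In bulk tissue, fewer cells of a type and less RNA per cell cannot be told apart.

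Of 22429 genes tested, 4524 (20.2%) differed between 24 and 6 months at an adjusted p under 0.05 (edgeR quasi-likelihood test, Benjamini-Hochberg adjustment, used throughout), and these are referred to as called. Of all genes tested, 10.7% were called higher and 9.49% called lower at 24 months, which were 2396 and 2128 genes. A change of at least 2-fold was found for 652 of the higher and 1060 of the lower genes (7.63% of all genes tested). The values of the 5 libraries of each age did not overlap for 13.7% of the genes. The median difference over all genes was -0.0044 on the log2 scale, the scale of all differences given. Scaling by library size alone moved this median to 0.13, gave 3878 higher and 1377 lower genes, so that 73.8% of the called genes were higher. Small differences of the same sign across many genes, as in the lists of proteasome and ribosomal genes below, therefore depend on the scaling.

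Genes were described in 50 lists of pathways, complexes and cell types. The lists with the most members called higher for their size were those of the cell cycle, the proteasome and immediate early genes. Those with the most called lower were genes of the mitochondrial genome, antigen presentation, ribosomal proteins and lymphocytes. The circadian clock had called members in both directions. In the lists named so far for which edgeR called 0 members in a direction, 0 to 2 members had an unadjusted p under 0.05 in that direction, and DESeq2 and limma voom called 0 or 1. The genes described were taken by a rule. Its first part took the 12 highest and 12 lowest differences among called genes with an official symbol. Groups of these genes did not overlap, and their mean log2 CPM was at least 1. Its second part took, in each list with at least 5 called members, the 2 with the smallest p. Further members of a list are given by name with their difference. Lists of Hox genes, tight junctions, pigment cells, neutrophils, the nuclear encoded respiratory chain and skeletal muscle had fewer called members than the background in both directions. The Hox result depended on the 6-month libraries used. With replicates 1 and 2 of 6 months left out, 8 Hox list members were higher and 1 lower, with a median difference of 0.60. With replicates 3, 4 and 5 left out, 0 were higher and 1 lower, with a median of -0.28.

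**Figure D1:**
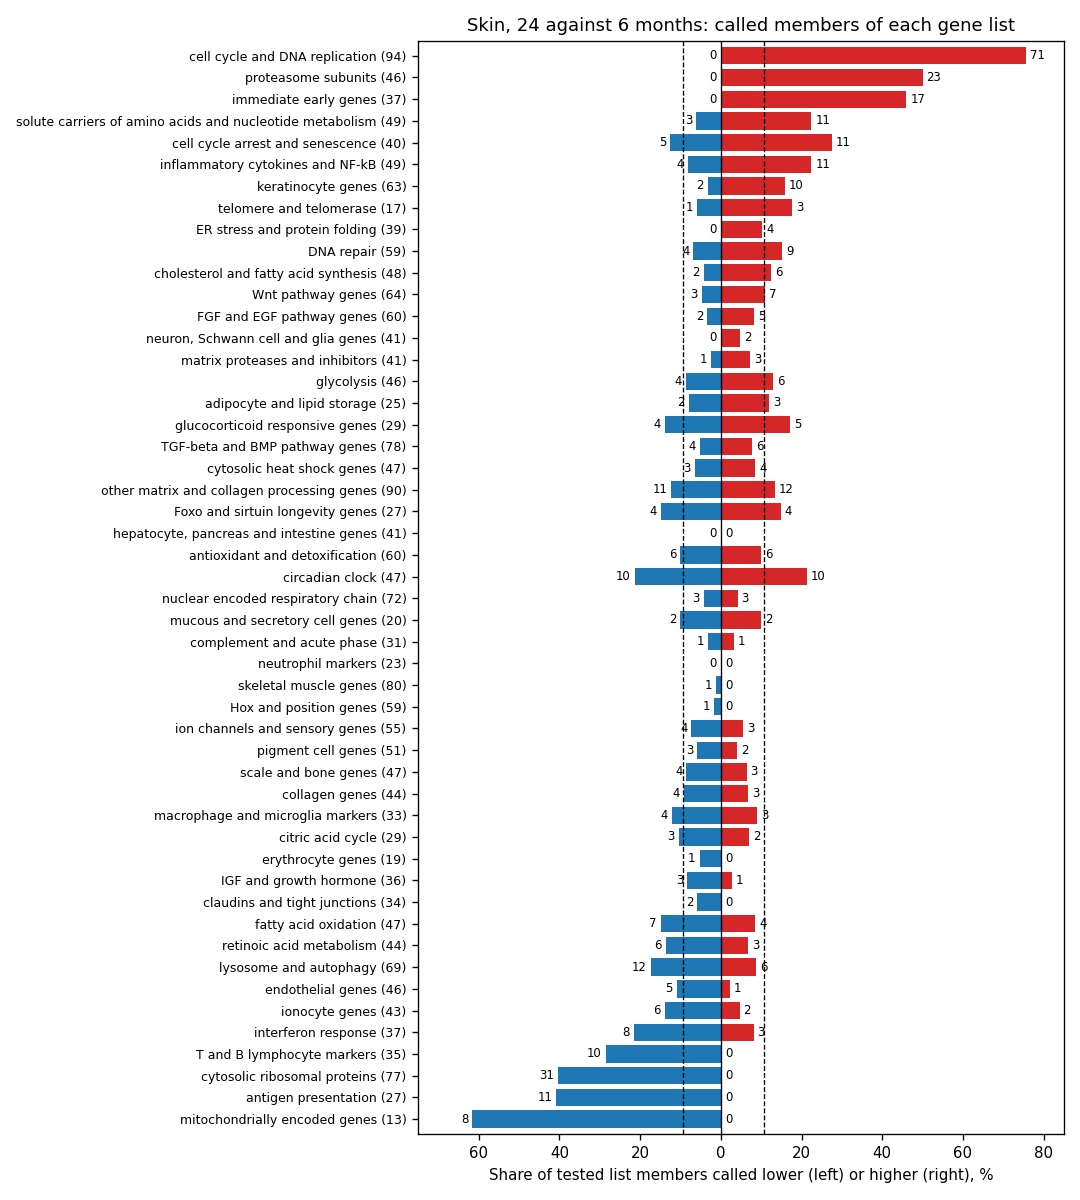
Share of the tested members of each of 50 gene lists that were called lower (blue, to the left) or higher (red, to the right) in skin of 24 against 6 months, in percent, with the number of called members at each bar and the number tested in parentheses. Dashed lines mark the shares over all genes tested, 9.49% lower and 10.7% higher. The bar of the cell cycle list reaches 71 of 94 genes higher and 0 lower.

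Genes of the cell cycle and DNA replication were higher at 24 months. Of 94 tested members of the list, 71 were called higher and 0 lower, with a median difference of 1.03. The kinase gene cdk1, which drives entry into mitosis, stood at 5.95, 2.18, 2.74, 6.08 and 4.02 CPM at 6 months and at 8.41, 14.0, 13.0, 14.9 and 40.9 CPM at 24 months (2.12, SE 0.37, adjusted p = 5.6e-04). The groups did not overlap, and replicate 5 of 24 months was far above the other libraries. Its cyclin partner ccnb1 and the mitotic kinase plk1 were also highest in replicate 5 of 24 months, with ccnb1 at 8.50, 11.9, 10.2, 13.6 and 34.2 CPM against 1.62 to 7.34 CPM at 6 months and plk1 at 8.99, 14.5, 10.9, 11.3 and 31.6 CPM against 2.20 to 6.49 CPM. The 2 members with the smallest p were orc1 and tpx2. The gene orc1, a subunit of the complex that marks origins of replication, was at 2.86, 3.23, 1.94, 2.20 and 3.46 CPM at 6 months and 6.75, 13.8, 8.66, 9.73 and 11.2 CPM at 24 months (1.87, SE 0.24, adjusted p = 4.6e-05). The spindle assembly factor gene tpx2 was at 3.51 to 7.93 CPM and 10.9 to 35.3 CPM (1.84, SE 0.28, adjusted p = 1.9e-04), again without overlap.

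Among genes of the MCM helicase, which unwinds DNA at replication forks, mcm2 (1.80), mcm3 (1.64), mcm4 (1.27), mcm5 (1.58) and mcm6 (1.14) were called higher, while mcm7 differed by 0.37 (adjusted p = 0.327). The sliding clamp gene pcna, at a log2 difference of 0.57, missed the threshold (adjusted p = 0.0613). The proliferation marker MKI67 was at 24.1, 14.2, 21.3, 32.0 and 24.4 CPM at 6 months and 37.5, 49.4, 57.8, 53.2 and 80.7 CPM at 24 months (1.26, SE 0.23, adjusted p = 7.8e-04), with no overlap. With 1 library left out the list had 60 to 75 higher members, and with replicates 3, 4 and 5 of 6 months left out 37. The mean log2 CPM of the list, relative to that of 6 months, was -0.30 at 12, 1.02 at 24, 0.06 at 36 and 0.60 at 42 months. The highest library of 6 months was at 0.32 and the lowest of 24 months at 0.42. Of the list, 61 members were lower and 1 higher in the mean of 36 and 42 months than at 24 months, where 11.7% of all genes were lower and 10.2% higher. This contrast shares its 24-month libraries with the comparison of 24 and 6 months.

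The cell cycle inhibitor gene cdkn1a was also higher. It was at 3.37, 1.09, 6.53, 2.83 and 4.19 CPM at 6 months and at 19.4, 29.4, 24.0, 27.7 and 37.8 CPM at 24 months (2.94, SE 0.48, adjusted p = 3.5e-04). No library of 24 months was below 19.4 CPM. Of 40 genes of cell cycle arrest and senescence 11 were higher and 5 lower, with a median of 0.01. The gene phlda3 was at 5.05, 5.77, 5.51, 6.34 and 5.12 CPM and 13.3, 10.1, 10.9, 8.78 and 10.96 CPM (0.96, SE 0.17, adjusted p = 5.5e-04). The retinoblastoma gene rb1 (1.11) was also higher, and the inhibitor genes cdkn2c (-1.26) and cdkn1ba (-0.63) were lower. Of 59 DNA repair genes 9 were higher and 4 lower, with the mismatch repair gene pms2 at 2.81 to 4.71 CPM at 6 months and 6.39 to 11.2 CPM at 24 months (1.37, SE 0.18, adjusted p = 5.9e-05).

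Of 46 subunits of the proteasome, the complex that degrades ubiquitin-marked proteins, 23 were higher and 0 lower, with a median difference of 0.41. The base subunit gene psmc1a was at 35.0, 38.4, 35.4, 46.3 and 49.0 CPM at 6 months and at 63.7, 72.8, 75.8, 53.1 and 66.0 CPM at 24 months (0.70, SE 0.14, adjusted p = 0.00163). The lid subunit gene psmd12 was at 41.4 to 62.9 CPM and 77.5 to 101 CPM (0.81, SE 0.17, adjusted p = 0.00247). Neither gene overlapped between ages. Called members were found in the catalytic core (psmb2, psmb5 and psmb7) and in the regulatory particle (psmc2 to psmc6, among others). With replicates 1 and 2 of 6 months left out 4 subunits were called, with 1 library left out 11 to 25, and with scaling by library size alone 34. The list mean was 0.34 at 12, 0.36 at 24, -0.46 at 36 and 0.05 at 42 months. In the mean of 36 and 42 months 34 subunits were lower and 0 higher than at 24 months, where 11.7% of all genes were lower and 10.2% higher.

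Of 49 genes of amino acid transport and nucleotide metabolism 11 were higher and 3 lower, with a median of 0.07. With replicates 1 and 2 of 6 months left out 8 were higher and 7 lower, and with replicates 3, 4 and 5 left out 9 and 0. Serine is made from an intermediate of glycolysis by phgdh, psat1 and a phosphatase. The gene psat1 was at 4.89, 4.59, 5.92, 8.17 and 6.30 CPM at 6 months and 15.5, 59.6, 46.1, 31.9 and 78.5 CPM at 24 months (2.95, SE 0.33, adjusted p = 2.0e-05), and phgdh was at 9.12, 16.2, 15.8, 17.8 and 17.4 CPM and 28.9, 115, 65.9, 46.1 and 79.7 CPM (2.14, SE 0.39, adjusted p = 8.2e-04). In both genes all libraries of 24 months were above those of 6 months, and replicate 1 was the lowest of 24 months. The gene odc1, which encodes the rate-limiting enzyme of polyamine synthesis, was at 10.7, 15.6, 26.9, 30.4 and 23.4 CPM and 208, 226, 278, 147 and 215 CPM (3.33, SE 0.61, adjusted p = 9.0e-04). Other higher members were the asparagine synthetase gene asns (1.14), the gene shmt2 of the mitochondrial glycine producing enzyme (0.74) and glud1a, a glutamate dehydrogenase gene at 162 to 191 CPM and 286 to 371 CPM (0.87, SE 0.14, adjusted p = 2.3e-04). The lower members were slc43a2a, uck2a and slc38a3.

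Immediate early genes, which are transcribed within minutes of a stimulus to a cell, were higher at 24 months. Of 37 tested 17 were called higher and 0 lower, with a median of 0.93. They made up 4 of the 12 genes with the highest differences, and klf4a, a Kruppel-like factor gene outside the list, was among these 12 as well. The AP-1 gene fosb was at 2.88, 6.47, 56.0, 71.0 and 38.4 CPM at 6 months and 614, 993, 922, 381 and 1178 CPM at 24 months (4.55, SE 0.77, adjusted p = 4.4e-04). Replicates 1 and 2 of 6 months were about an order of magnitude below replicates 3 to 5, and all 5 were below the lowest library of 24 months. The AP-1 gene fosl1a was at 1.21, 2.33, 4.08, 4.08 and 4.13 CPM and 29.3, 50.2, 22.6, 6.49 and 20.3 CPM (3.03, SE 0.56, adjusted p = 9.4e-04). The Jun dimerization gene jdp2 was at 5.51, 6.65, 11.5, 11.5 and 20.3 CPM and 341, 531, 74.2, 32.4 and 100.1 CPM (4.28, SE 0.94, adjusted p = 0.00317). In jdp2 replicates 1 and 2 of 24 months were the highest, with a difference of 3.63 without replicate 2, and in fosl1a replicate 4 of 24 months was the closest to the 6-month libraries.

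The zinc finger gene egr2a was at 0.309, 0.695, 0.764, 0.343 and 0.788 CPM at 6 months and 23.8, 41.0, 7.66, 1.00 and 4.14 CPM at 24 months (4.74, SE 1.06, adjusted p = 0.00358), and the older group spread widely, with replicate 4 just above the 6-month libraries. Without replicate 2 of 24 months the difference was 3.98. The gene was not called by limma voom, nor by edgeR with replicates 3, 4 and 5 of 6 months left out. The higher adjusted p of these 2 settings was 0.0706. Its relative egr1 was at 58.6, 151, 145, 137 and 146 CPM and 1113, 1414, 657, 144 and 202 CPM (2.47, SE 0.72, adjusted p = 0.0194), and there the groups overlapped through replicate 4 of 24 months. The proto-oncogene mycb was at 23.8, 40.0, 31.1, 29.4 and 26.1 CPM and 102, 68.5, 90.3, 61.3 and 58.3 CPM (1.34, SE 0.22, adjusted p = 3.5e-04). The gene klf4a was at 1.31, 2.96, 33.7, 30.9 and 40.4 CPM and 136, 161, 213, 122 and 221 CPM (2.97, SE 0.87, adjusted p = 0.0189). As in fosb, replicates 1 and 2 of 6 months were the lowest, and without them klf4a was no longer called (adjusted p = 0.0726). The count of higher immediate early genes was 9 without replicates 1 and 2 of 6 months, 11 without replicates 3, 4 and 5, and 12 to 19 with 1 library left out. The list mean was 0.72 at 12, 1.22 at 24, 1.68 at 36 and 0.89 at 42 months, with 0.49 in the highest library of 6 months and 0.58 in the lowest of 24 months.

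Of 49 genes of inflammatory cytokines and NF-kB 11 were higher and 4 lower, with a median of 0.13. The lowest difference of the list was that of irg1l (-8.30), described below. The C/EBP factor gene cebpb was at 53.1, 80.1, 126, 89.8 and 99.5 CPM at 6 months and 371, 411, 242, 133 and 264 CPM at 24 months (1.66, SE 0.32, adjusted p = 0.00112). The prostaglandin synthase genes ptgs2a (1.45) and ptgs2b (1.35) and the feedback inhibitors of cytokine signalling socs3a (1.48) and cish (1.75) were also higher. With replicates 3, 4 and 5 of 6 months left out 5 members were called higher. Of 29 genes that respond to glucocorticoids in other vertebrates, 5 were higher and 4 lower, and cebpb, socs3a and cish are members of both lists. The shares of the 29 were 17.2% and 13.8%, against 10.7% and 9.49% over all genes tested. Their median difference was 0.02. It was -0.48 with replicates 1 and 2 of 6 months left out, and 0.85 with replicates 3, 4 and 5 left out.

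**Figure D2:**
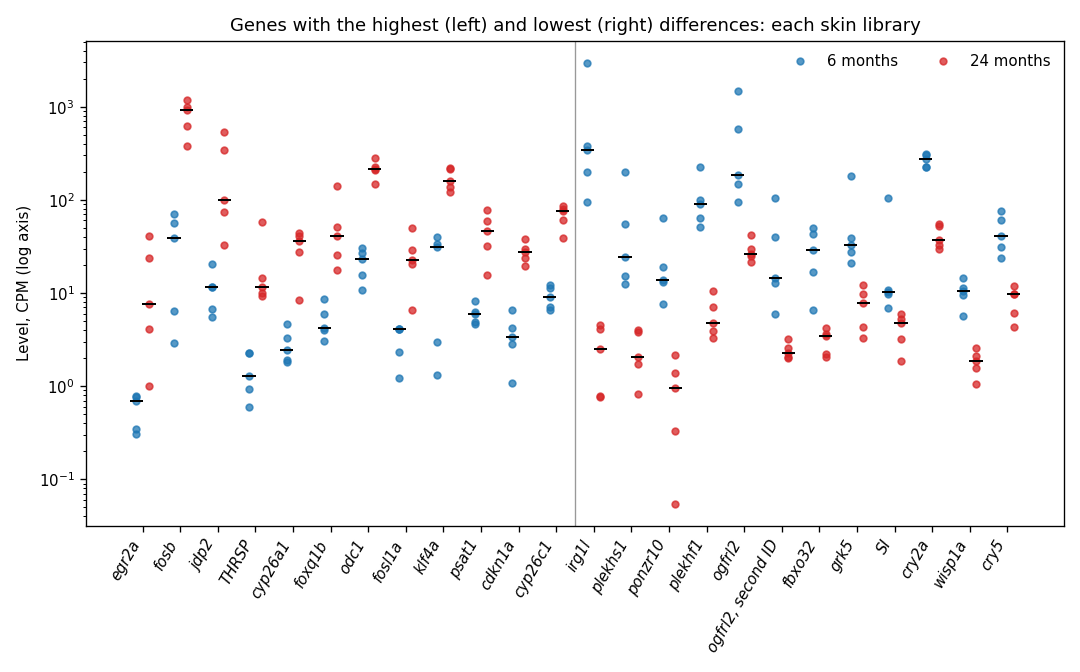
Level of the 12 genes with the highest and the 12 gene IDs with the lowest differences, in CPM on a log axis, in each skin library of 6 months (blue) and 24 months (red), with lines at the medians. The genes were chosen among those whose groups do not overlap, and irg1l has the widest gap of medians, with replicate 2 of 6 months at 2969 CPM.

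The retinoic acid breakdown genes cyp26a1 and cyp26c1 were among the highest differences. The enzymes Cyp26a1 and Cyp26c1 inactivate retinoic acid, and in many tissues cyp26a1 is induced by it. The gene cyp26a1 was at 4.61, 2.45, 3.28, 1.80 and 1.91 CPM at 6 months and 8.50, 27.5, 43.7, 36.6 and 40.6 CPM at 24 months (3.48, SE 0.54, adjusted p = 2.1e-04), with replicate 1 of 24 months well below the other 4. The gene cyp26c1 was at 7.08, 9.01, 12.2, 11.4 and 6.58 CPM and 80.6, 86.7, 60.7, 39.1 and 76.3 CPM (2.89, SE 0.36, adjusted p = 4.3e-05). Of 44 genes of retinoic acid metabolism 3 were higher and 6 lower, with a median of -0.12. The third higher member was the retinol binding protein gene rbp1a (0.96), and the lower ones included the receptor genes raraa (-0.53) and rxrbb (-0.31) and the retinol dehydrogenase gene rdh5 (-1.35).

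Of 63 keratinocyte genes 10 were higher and 2 lower, with a median of 0.17. The desmosome gene pkp1 was at 72.9, 84.4, 109, 120.3 and 133 CPM at 6 months and 171, 349.9, 204, 139.9 and 260.3 CPM at 24 months (1.11, SE 0.21, adjusted p = 0.00116). The keratin genes krt4 (0.61), krt18 (0.98) and krt1-19d (1.53) and the hemidesmosome collagen gene col17a1b (1.05) were higher. Of the other keratinocyte markers, krt5 (0.20, adjusted p = 0.455) and krt8 (-0.10, adjusted p = 0.729) were not called. Nor were tp63 (-0.34, adjusted p = 0.265) and cldni (0.31, adjusted p = 0.234). The laminin chain gene lama5, part of the basement membrane, was lower, at 68.1, 81.5, 136, 93.8 and 92.5 CPM and 35.1, 35.8, 49.3, 46.6 and 55.2 CPM (-1.09, SE 0.20, adjusted p = 8.5e-04). So was grhl3, a factor of epidermal barrier formation in mice (-1.28). With replicates 1 and 2 of 6 months left out 5 keratinocyte genes were called higher and 6 lower, with a median of -0.0027. With replicates 3, 4 and 5 left out 17 were called higher and 1 lower, with a median of 0.65. The forkhead factor gene foxq1b was at 4.04, 3.05, 4.24, 8.68 and 6.02 CPM and 25.9, 139, 17.7, 40.8 and 51.6 CPM (3.40, SE 0.68, adjusted p = 0.00163), with replicate 2 of 24 months the highest and a difference of 2.71 without it.

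Lipid genes gave a mixed picture. The gene named THRSP after a thyroid hormone responsive gene of fat synthesis in mammals was at 0.592, 1.30, 2.29, 0.942 and 2.28 CPM at 6 months and 14.4, 9.95, 57.4, 9.20 and 11.7 CPM at 24 months (3.79, SE 0.72, adjusted p = 0.00106). Replicate 3 of 24 months, the library with high liver genes, was the highest, and the other 4 were still above all of 6 months. The difference was 2.93 without replicate 3. Of 48 genes of cholesterol and fatty acid synthesis 6 were higher and 2 lower. The elongase gene elovl7b was at 2.55 to 10.1 CPM and 14.5 to 62.8 CPM (2.29, SE 0.43, adjusted p = 9.6e-04), and the fatty acid synthase gene fasn was at 104, 100.0, 103, 88.1 and 181 CPM and 228, 259, 478, 321 and 207 CPM (1.37, SE 0.44, adjusted p = 0.0302). Without 1 library the count of higher members was 2 to 6. Of 47 genes of fatty acid oxidation 4 were higher and 7 lower, with opposite calls for the carnitine palmitoyltransferase genes cpt1a (0.77, adjusted p = 0.00191) and cpt1b (-1.66, adjusted p = 0.0196). With replicates 3, 4 and 5 of 6 months left out 0 members were called in either direction, and cpt1a had an adjusted p of 0.0656. Muscle transcripts were abundant in these libraries, and their part in the difference of cpt1b was not tested.

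Of the genes ranked by the first part of the rule, the lowest difference was that of irg1l. This gene is a relative of the mammalian gene for the enzyme that makes the antimicrobial metabolite itaconate. It was at 95.6, 2969, 201, 345 and 375 CPM at 6 months and at 0.792, 2.52, 4.06, 0.765 and 4.53 CPM at 24 months (-8.30, SE 1.45, adjusted p = 5.5e-04). Replicate 2 of 6 months was several times above the other 4, which were in turn far above every library of 24 months. Replicate 2 of 6 months also had the highest level of 3 other genes of this rank. The pleckstrin homology gene plekhs1 was at 54.4, 198, 12.5, 15.2 and 24.4 CPM and 0.820, 3.84, 1.73, 2.03 and 4.05 CPM (-4.61, SE 0.91, adjusted p = 0.00143), and plekhf1, of another gene of that domain, was at 63.6, 224, 51.6, 90.5 and 99.0 CPM and 3.31, 10.6, 4.75, 3.90 and 7.15 CPM (-4.15, SE 0.65, adjusted p = 2.2e-04). The receptor kinase gene grk5 was at 38.9, 181, 21.0, 32.7 and 27.7 CPM and 3.31, 9.84, 4.27, 7.75 and 12.1 CPM (-3.02, SE 0.57, adjusted p = 0.00106). Without replicate 2 of 6 months the difference was -6.66 for irg1l, -3.42 for plekhs1, -3.69 for plekhf1 and -2.02 for grk5, and all 4 genes were still called.

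In the lists of antigen presentation and lymphocytes, genes were called lower but not higher at 24 months. Of 27 genes of antigen presentation 11 were lower and 0 higher, with a median of -0.46. The invariant chain gene cd74a, which guides class II molecules to the compartment where they take up peptides, was at 2389, 2336, 2197, 2172 and 2174 CPM at 6 months and at 690.4, 898, 791, 923 and 1564 CPM at 24 months (-1.21, SE 0.21, adjusted p = 5.4e-04). The 6-month libraries lay within a narrow range and replicate 5 of 24 months came closest to them. Its paralogue cd74b was at 963 to 1142 CPM and 330.3 to 810.1 CPM (-1.08, SE 0.21, adjusted p = 0.00145). The peptide transporter gene abcb3l1 was at 58.3, 36.4, 26.3, 41.3 and 41.9 CPM and 9.48, 16.4, 12.9, 14.7 and 18.8 CPM (-1.50, SE 0.22, adjusted p = 1.7e-04). The class II activator gene ciita was at 66.1, 72.0, 17.2, 31.9 and 23.5 CPM and 9.97, 17.4, 7.14, 7.83 and 10.2 CPM (adjusted p = 0.00269). Its partner rfxap (-0.74), tap1 (-0.62), b2m (-0.80) and b2ml (-0.68) were lower as well.

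Of 35 markers of T and B lymphocytes 10 were lower and 0 higher, with a median of -0.52, and 9 of these 10 did not overlap between ages. Over all genes, 2513 of the 4524 called did not overlap. The T cell receptor kinase gene zap70 was at 12.4, 9.52, 11.5, 13.6 and 11.7 CPM at 6 months and 5.66, 5.06, 6.96, 6.04 and 6.58 CPM at 24 months (-0.95, SE 0.16, adjusted p = 5.0e-04). The T cell genes cd8a (-1.96), lck (-0.52), il7r (-0.92) and ccr7 (-1.46) and the lymphoid factor gene ikzf1 (-1.09) made up much of the rest. The summed level of the list was 714, 641, 510, 469 and 430.2 CPM at 6 months and 506, 629, 559, 599 and 637 CPM at 24 months. These ranges overlap, and the sum was not lower at 24 months. Of 33 macrophage markers 3 were higher and 4 lower, and cd74a, cd74b and the pan-leukocyte gene ptprc (-0.76) were among the lower. Of 23 neutrophil markers 0 were called by edgeR, 2 by DESeq2 and 0 by limma voom, while 3 were higher and 1 lower at an unadjusted p under 0.05. Of 37 interferon response genes 8 were lower and 3 higher, the former including stat4 at 31.7 to 100.3 CPM and 7.15 to 19.4 CPM (-1.94, SE 0.34, adjusted p = 5.4e-04) and irf7 (-1.41), and the latter IRF3 (0.94, SE 0.23, adjusted p = 0.00635). The count of lower interferon genes was 3 to 11 with 1 library left out, and that of lower lymphocyte markers 9 to 13. With replicates 3, 4 and 5 of 6 months left out 5 lymphocyte markers were called lower. In the mean of 36 and 42 months, 13 lymphocyte, 13 macrophage and 11 antigen presentation genes were higher than at 24 months, and 0, 0 and 2 were lower. Over all genes 10.2% were higher and 11.7% lower in this contrast, which shares its 24-month libraries with the comparison of 24 and 6 months. The mean log2 CPM of the macrophage list, relative to 6 months, was 0.11 at 36 and 0.63 at 42 months. Single libraries of 42 months ranged from -0.21 to 1.99.

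Clock genes were called in both directions. In vertebrates the factors Clock and Arntl drive transcription of period and cryptochrome genes, whose products repress them, and accessory loops with nuclear receptors and PAR-bZIP factors tune the cycle. Zebrafish have several cryptochrome genes. Of 47 clock genes 10 were higher and 10 lower at 24 months, with a median of -0.24. The smallest adjusted p of all genes was that of the cryptochrome gene cry2a, at 226, 225, 304, 310.4 and 275 CPM at 6 months and 32.6, 36.9, 55.3, 51.9 and 29.7 CPM at 24 months (-2.70, SE 0.19, adjusted p = 2.4e-08). The lowest library of 6 months was well above the highest of 24 months, and the spread within each age was small. The gene cry2b was at 26.2, 51.0, 78.6, 66.1 and 73.7 CPM and 16.0, 15.0, 22.5, 15.0 and 10.3 CPM (-1.91, SE 0.28, adjusted p = 1.5e-04), and cry5 was at 23.9, 31.2, 41.4, 76.2 and 60.4 CPM and 4.29, 9.72, 6.11, 9.78 and 11.9 CPM (-2.48, SE 0.29, adjusted p = 2.6e-05). In both genes replicates 1 and 2 of 6 months were the closest to the older fish. The gene cry5 is also a member of the DNA repair list, where its difference was the lowest.

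The cryptochrome gene cry3 went the other way, from 46.7, 45.5, 44.2, 40.4 and 35.0 CPM to 82.2, 97.2, 106, 95.8 and 121 CPM (1.25, SE 0.14, adjusted p = 2.0e-05), as did the period gene per1b, from 134, 136, 131, 96.0 and 95.3 CPM to 214, 238, 243, 282 and 286 CPM (1.09, SE 0.16, adjusted p = 1.2e-04). Neither overlapped between ages. The light responsive period gene per2 was lower (-1.01), and so were arntl1b (-1.24), npas2 (-1.48) and roraa (-0.97). The repressor receptor genes nr1d1 (1.73) and nr1d4b (1.04) and the PAR-bZIP genes dbpa (1.09), dbpb (1.71) and hlfb (2.08) were higher. In nr1d1 replicate 1 of 6 months (75.1, 42.1, 33.3, 18.4 and 17.0 CPM) overlapped with the lowest library of 24 months (68.7, 121, 127, 144 and 154 CPM). Levels at other ages did not follow age in order. The gene cry2a was at 228 ± 33.3 CPM at 12, 61.3 ± 15.6 at 36 and 163 ± 20.6 at 42 months (SD, n = 5), and per1b was at 109 ± 19.6, 353 ± 76.3 and 147 ± 17.5 CPM. For brain, cry2a was also lower at 24 than at 6 months, with a difference of -1.90 (adjusted p = 1.7e-12).

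**Figure D3:**
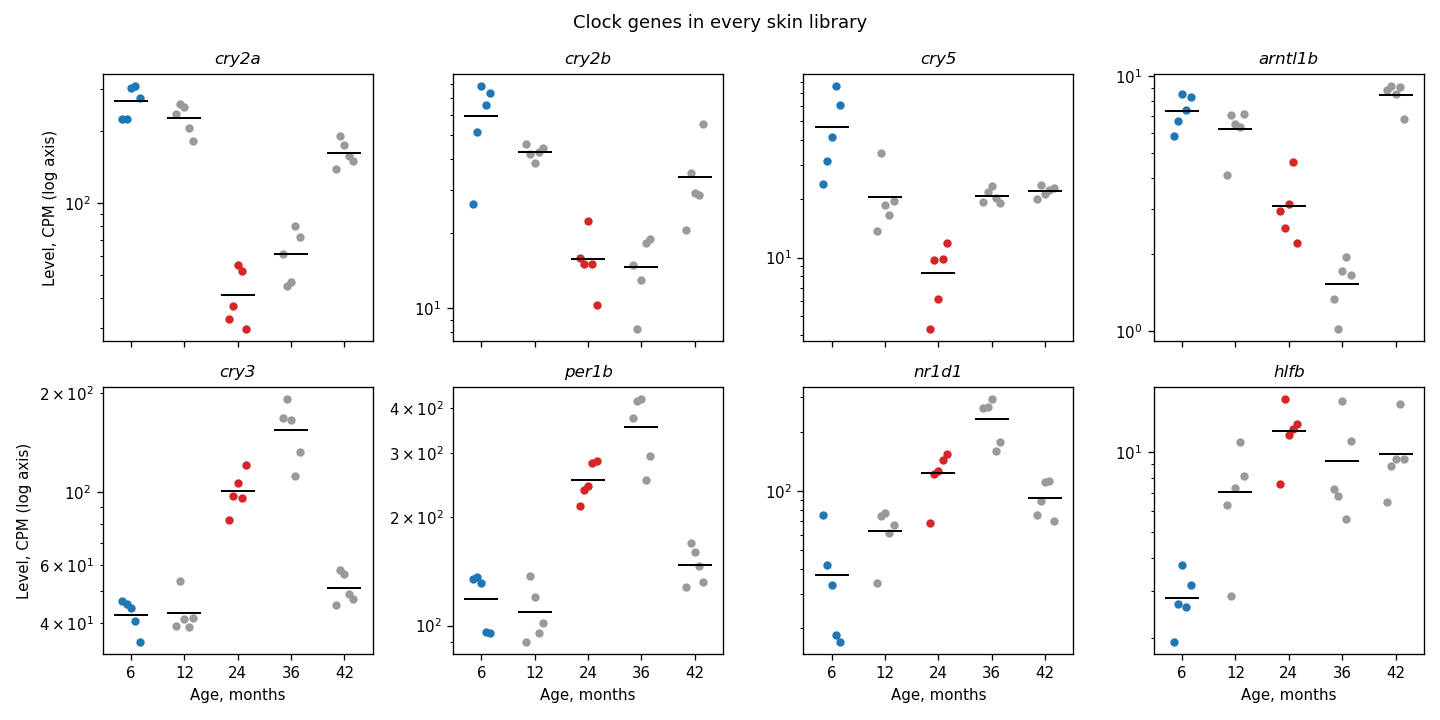
Level of 8 clock genes in CPM on a log axis in every skin library by age, with 6 months in blue, 24 months in red, other ages in grey and lines at the means. In cry2a the libraries of 24 months lie at 29.7 to 55.3 CPM and those of 6 months at 225 to 310.4 CPM, while cry3 and per1b are highest at 36 months.

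Genes of the translation machinery and of the mitochondrial genome were lower at 24 months. Of 77 cytosolic ribosomal protein genes 31 were lower and 0 higher, with a median of -0.31 and 76 of 77 below 0. The gene rps27.2 was at 435, 359, 518, 382 and 397 CPM at 6 months and 275, 302, 328, 262 and 337 CPM at 24 months (-0.47, SE 0.11, adjusted p = 0.00450), and rpl34 was at 759.6 to 1009.9 CPM and 512 to 728 CPM (-0.47, SE 0.12, adjusted p = 0.00695). These differences are small, and the number called depended on the fit. It was 4 with scaling by library size alone, where the median was -0.18, 7 with only the libraries of 6 and 24 months in the fit, 0 with replicates 3, 4 and 5 of 6 months left out, and 10 to 57 with 1 library left out. Where a ribosomal protein gene has a near-identical copy, its reads may be assigned uncertainly.

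Of 13 protein-coding genes of the mitochondrial genome, which encodes subunits of the respiratory chain and the ATP synthase, 8 were lower and all 13 were below 0, with a median of -0.76. The count was also 8 with each library left out in turn. The complex I gene mt-nd3 was at 625, 1144, 699.8, 889 and 810.1 CPM at 6 months and 436, 323, 507, 323 and 413 CPM at 24 months (-1.06, SE 0.18, adjusted p = 4.4e-04). The oxidase gene mt-co2 was at 12490.4, 18079, 12381, 16153 and 12932 CPM and 8285, 5996, 10510.0, 6045 and 7585 CPM (-0.91, SE 0.17, adjusted p = 0.00116). Neither overlapped between ages. Summed, the mitochondrial genes were at 92197, 129912, 90804, 131202 and 101832 CPM and 71409.7, 49875, 87369, 50744 and 60155 CPM. Muscle genes had a median difference of the same sign. They summed to 57938, 72791, 32551, 54532 and 36089 CPM at 6 months and 62231, 18319.5, 28018, 27831 and 27053 CPM at 24 months, overlapping through replicate 1 of 24 months, with a median difference of -0.54 and 1 of 80 called. The part of muscle content in the mitochondrial values was not tested.

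Of 72 nuclear encoded genes of the respiratory chain, 3 were higher and 3 lower, with a median of -0.17. The succinate dehydrogenase gene sdha was at 207, 358, 238, 311 and 396 CPM and 215, 191, 166, 162 and 176 CPM (-0.73, SE 0.16, adjusted p = 0.00283), with overlap, and the oxidase subunit gene cox6b1 was at 13.0 to 18.8 CPM and 17.5 to 48.4 CPM (1.04, SE 0.22, adjusted p = 0.00239). Of 46 glycolysis genes 6 were higher and 4 lower. The gene gapdh was at 3075, 7384, 3565, 4288 and 2793 CPM and 1812, 754, 1479, 1077 and 973 CPM (-1.79, SE 0.49, adjusted p = 0.0128), and eno3 (-1.19), a muscle enolase and the 1 called member of the muscle list, was also lower. The gene gapdhs was higher (0.66, SE 0.14, adjusted p = 0.00297).

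**Figure D4:**
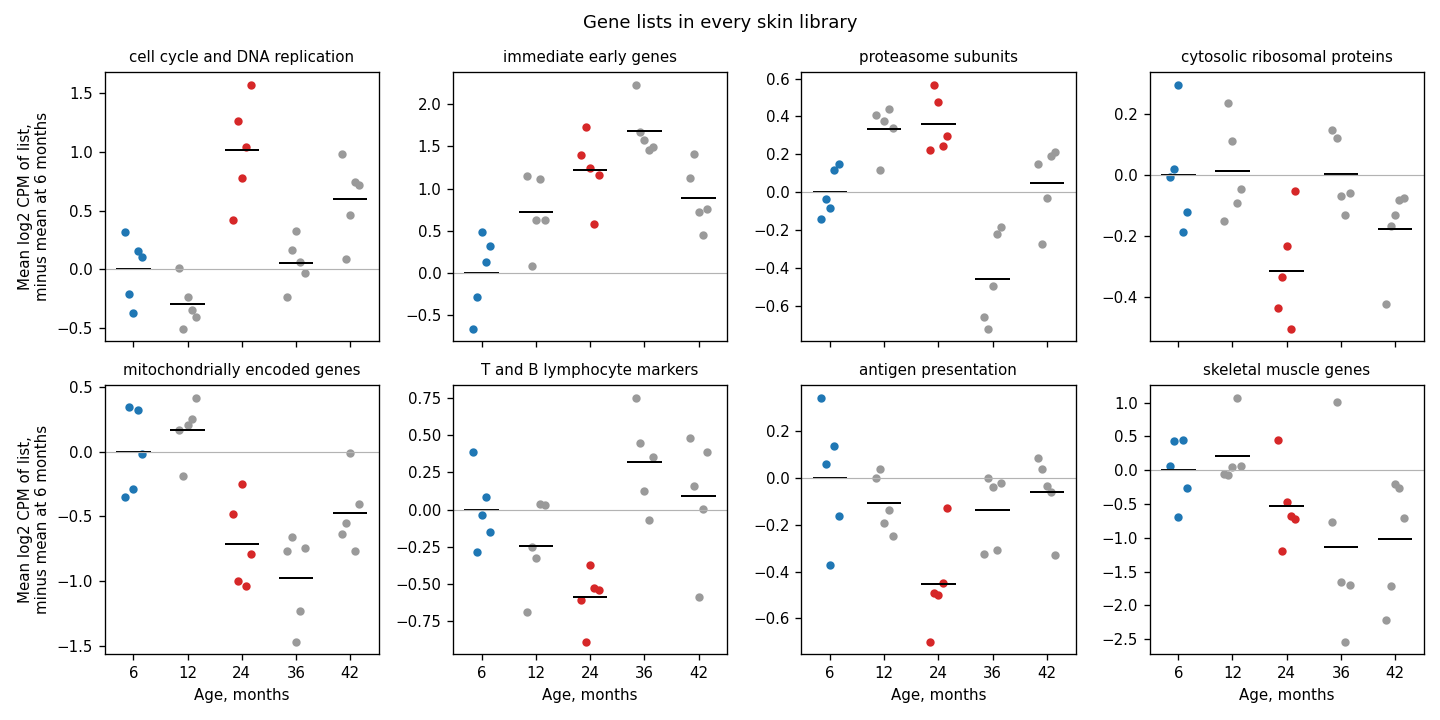
Mean log2 CPM of the tested members of 8 gene lists in each skin library, minus the mean of the 6-month libraries, by age, with 6 months in blue, 24 months in red, other ages in grey and lines at the means. The cell cycle mean is 1.02 at 24 months and 0.06 at 36 months, and the mean of muscle genes ranges widely within an age.

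Of 90 genes of matrix proteins and collagen processing 12 were higher and 11 lower, and of 44 collagen genes 3 were higher and 4 lower. The shares were 13.3% and 12.2% in the first list and 6.82% and 9.09% in the second. Over all genes tested they were 10.7% and 9.49%, so both lists were near or below the background. With replicates 3, 4 and 5 of 6 months left out 9 genes of the first list were higher and 3 lower. No test by role was made, and most members named here were picked after their values were seen. The gene fkbp10b, of a chaperone of procollagen, was at 9.48, 12.5, 12.4, 14.1 and 15.3 CPM at 6 months and 26.9, 33.6, 28.6, 37.4 and 30.9 CPM at 24 months (1.30, SE 0.14, adjusted p = 1.7e-05). Other higher members were the prolyl hydroxylase gene p4ha1b (1.51), the lysyl hydroxylase genes plod1a (0.65) and plod3 (0.73) and crtap (0.37). The proteoglycan genes prelp (-0.82), omd (-1.01), fmoda (-0.94) and fmodb (-0.38) were among the lower, as were the periostin genes postna and postnb (-0.77 and -0.75) and sparc (-0.65). The basement membrane gene fras1 was at 17.3, 22.4, 34.2, 26.9 and 25.1 CPM and 9.21, 7.91, 7.87, 9.81 and 8.61 CPM (-1.53, SE 0.25, adjusted p = 3.0e-04). The anchoring fibril gene COL7A1 was higher, at 16.5 to 25.8 CPM and 32.0 to 45.5 CPM (0.88, SE 0.18, adjusted p = 0.00175), and col6a6 was higher by 0.84 (SE 0.18, adjusted p = 0.00286). The major dermal collagen genes col1a1a (-0.64, adjusted p = 0.163) and col1a2 (-0.48, adjusted p = 0.284) were not called. The matricellular gene wisp1a was at 9.56, 10.4, 11.2, 5.68 and 14.4 CPM and 2.13, 2.54, 1.06, 1.56 and 1.85 CPM (-2.49, SE 0.35, adjusted p = 9.2e-05), with no overlap.

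Of 43 ionocyte genes, from the cells that exchange ions and acid with the water, 6 were lower and 2 higher. The carbonic anhydrase gene ca15c was at 6.03, 69.3, 3.09, 4.45 and 10.1 CPM at 6 months, highest in replicate 2, and between 0 and 0.119 CPM at 24 months, too close to 0 for a reliable fold change. Its mean log2 CPM was below 1. The ammonium transporter genes rhcga (-2.20) and rhcgl1 (-0.93) were lower too, and ca8 was higher (0.91, SE 0.20, adjusted p = 0.00265). With 1 library left out 1 to 4 ionocyte genes were called lower. Of 69 lysosome and autophagy genes 12 were lower and 6 higher. The cathepsin genes ctsf (-0.69, SE 0.13, adjusted p = 8.6e-04) and ctsa (-0.71, SE 0.14, adjusted p = 0.00137) did not overlap between ages, with ctsa at 43.5 to 50.9 CPM and 25.7 to 31.6 CPM. The gene agr2, a protein disulfide isomerase of mucus producing cells, was at 23.9, 37.1, 32.1, 71.8 and 54.2 CPM and 205, 421, 262, 96.4 and 247 CPM (2.49, SE 0.51, adjusted p = 0.00179). Of its list of 20 mucous and secretory cell genes 2 were higher and 2 lower, with a median of 0.12, and of -0.47 without 24 months replicate 3.

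Pathway lists of Wnt (7 higher, 3 lower of 64), FGF and EGF (5 and 2 of 60) and TGF-beta and BMP ligands and receptors (6 and 4 of 78) were near or below the background. Among ligands, wnt7bb was at 1.97 to 3.60 CPM at 6 months and 5.99 to 13.2 CPM at 24 months (1.60, SE 0.24, adjusted p = 1.7e-04) and wnt5a was lower (-1.68). The EGF family gene AREGB was higher (1.68, SE 0.27, adjusted p = 3.3e-04), at low levels of 0.169 to 0.412 CPM at 6 months and 0.765 to 1.34 CPM at 24 months. The BMP target gene id2b was at 2.78 to 4.71 CPM and 7.67 to 17.6 CPM (1.61, SE 0.29, adjusted p = 6.3e-04). Of 27 genes of the Foxo and sirtuin list 4 were higher and 4 lower. The deacylase gene sirt5 was at 30.4, 123, 30.7, 45.9 and 39.8 CPM and 18.5, 12.6, 16.3, 18.6 and 21.3 CPM (-1.63, SE 0.35, adjusted p = 0.00270), and sirt1 fell by 0.71 (SE 0.15, adjusted p = 0.00265) with no overlap. With replicates 3, 4 and 5 of 6 months left out sirt1 was not called (adjusted p = 0.172). The chaperone gene hsp90ab1 was at 4007 to 5471 CPM and 2254 to 3214 CPM (-0.66, SE 0.12, adjusted p = 7.7e-04), and the ferritin gene fth1a fell by 0.56 (SE 0.12, adjusted p = 0.00191).

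The remaining lowest differences belonged to genes of no common role. The gene ponzr10, of the onzin related family, was at 63.2, 13.2, 7.64, 18.9 and 13.8 CPM at 6 months and 0.0546, 1.38, 0.333, 0.949 and 2.15 CPM at 24 months (-4.58, SE 0.69, adjusted p = 1.9e-04). The symbol ogfrl2, after an opioid growth factor receptor, is borne by 2 gene IDs, which fell by 4.11 and 3.88 and had the same order of libraries at 6 months. The first of them, ENSDARG00000024815, was at 1478, 149, 94.5, 573 and 186 CPM and 21.6, 26.2, 29.6, 24.7 and 42.0 CPM. Without replicate 1 of 6 months they fell by 3.14 and 2.94, and ponzr10 by 3.80. Reads shared between the copies make the level of each uncertain. The ubiquitin ligase gene fbxo32, known from muscle atrophy in mammals, was at 16.7, 6.56, 49.9, 42.8 and 28.7 CPM and 3.63, 3.48, 2.21, 4.19 and 2.06 CPM (-3.21, SE 0.59, adjusted p = 8.9e-04). It was not called with replicates 3, 4 and 5 of 6 months left out (adjusted p = 0.0637). The gene named SI after sucrase-isomaltase was at 9.66, 6.98, 10.8, 10.3 and 104 CPM and 4.78, 3.22, 1.88, 5.30 and 5.93 CPM (-2.74, SE 0.77, adjusted p = 0.0157). Its size rested on replicate 5 of 6 months, without which it fell by 1.17 and was not called. Nor was it called by limma voom, or by edgeR with replicates 3, 4 and 5 of 6 months left out. The highest adjusted p of these 3 settings was 0.421.

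For the 24 gene IDs with the highest and lowest differences, values after 24 months were read beside the comparison. Over all genes 21.9% differed between the mean of 36 and 42 months and 24 months. Of the 12 highest genes 2 were called in this contrast, THRSP at -3.83 (adjusted p = 1.3e-04) and psat1 at -2.23 (adjusted p = 2.4e-05), both lower at the later ages. The values of fosb were 453 ± 362 CPM at 12, 778 ± 359.7 at 36 and 413 ± 179 at 42 months (SD, n = 5), and those of cdkn1a were 5.01 ± 4.21, 70.0 ± 30.5 and 11.1 ± 3.78 CPM. Of the 12 lowest 9 were called higher at the later ages, among them ponzr10 at 3.51 (adjusted p = 6.9e-04), cry2a at 1.27 (adjusted p = 5.7e-05) and wisp1a at 1.52 (adjusted p = 0.00167). Only irg1l, grk5 and SI were not. Both contrasts use the libraries of 24 months, in opposite sign.

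The same ages were compared in brain, where RNA of 2 fish was pooled in each 6-month library. Of the fish used, 4 of the 5 fish of 24 months and 2 of those pooled at 6 months also gave skin, which the test did not take into account. Of 24756 genes tested 10.9% differed between tissues in their difference of 24 and 6 months. Of the 24 gene IDs 23 did so, a count that is in part fixed by their choice for a high or low difference in skin. In brain fosb stood at 40.3 ± 12.8 CPM at 6 and 39.9 ± 13.4 CPM at 24 months (SD, n = 5), and the difference of skin from brain was 4.53 (SE 0.87, adjusted p = 7.3e-04). For cry2a brain was lower at 24 months as in skin, and the difference between tissues was -0.83 (SE 0.20, adjusted p = 0.00436). The gene cry5 was also lower in brain, at -1.36 (adjusted p = 5.2e-04). For irg1l the tissues were not shown to differ (-4.18 in brain, difference between tissues -4.18 (SE 1.71, adjusted p = 0.107)).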

How the data were processed

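RNA of skin of 10 male fish was measured, 5 of 24 and 5 of 6 months. Per the methods and processing notes, libraries were made with a TruSeq kit, sequenced as single-end reads, extracted with CASAVA 1.8.0, mapped with TopHat 2.0.6 to the build Zv9 and assigned to genes with HTSeq or featureCounts. The counts deposited by the authors are whole numbers per gene and were not normalised. The authors computed the deposited RPKM values from counts and exon length, and these served only for levels of marker genes and for a filter. Since the kit keeps no strand, values of overlapping and antisense genes are uncertain. The 10 libraries held 32925263 to 38532966 counts each. Intervals of counting were not needed at this depth. The p-values rest on an estimate of spread shared by the skin libraries of all ages, which includes the noise of counting. In the test against brain, the brain libraries of 6 months were pools of fish. Their spread is therefore not that between single fish.

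The 32677 gene IDs were kept as deposited, 351 of them without a symbol, and 21028 were found in the reference name table. Coordinates and sequences were not used here. Groups of age were taken from the labels. No pair of libraries was identical. The 2-sided quasi-likelihood test of edgeR 4.0.16 (R 4.3.3, robust fit) was run on all 25 skin libraries, after filterByExpr and with TMM normalisation. The 5 ages were levels of a single factor and shared the estimate of spread. Genes were called at a Benjamini-Hochberg adjusted p under 0.05. The same fit gave the mean of 36 and 42 months against 24 months, and a fit of 50 brain and skin libraries gave the difference between tissues. Standard errors (SE) were taken from the difference and its F value. Log2 CPM used a prior count of 1.

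The genes given a full description were the 12 highest and 12 lowest called differences among officially named genes whose groups did not overlap and whose mean log2 CPM reached 1 or more, and, in each list with at least 5 called members, the 2 of smallest p. The 50 lists hold 2796 symbols. This comparison, its lists and its rule were chosen with earlier results of these data known. Some genes that meet the rule are not reported here. Other genes named were chosen after their values were seen. The statistics were tested on simulated data.

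Alternatives were RLE size factors, no filter, the filter of an RPKM above 0 in every library, DESeq2 1.42.0, limma 3.58.1 voom, only the libraries of the ages compared, and each library left out in turn. Added after the data were seen were leaving out replicates 1 and 2, or 3, 4 and 5, of 6 months, and scaling by library size alone. A further 2 libraries of the series, whose labels name both skin and liver, were put in no group.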

Additional observations from a re-analysis of the deposited data

Results flagged for a closer look

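Within a group of 5 libraries, some described genes had 1 library far from the other 4 on the log2 scale, with a gap to the nearest library that took more than 0.71 of the range of the group. Chance gives this for about 1 in 20 groups. The 2 age groups of each of the 87 genes taken by the rule were screened, so several such cases would arise by chance alone. The library was the high one for THRSP in 24 months replicate 3 (57.4 CPM against 9.20 to 14.4 CPM in the others, share 0.757), grk5 in 6 months replicate 2 (181 CPM against 21.0 to 38.9 CPM in the others, share 0.714), SI in 6 months replicate 5 (104 CPM against 6.98 to 10.8 CPM in the others, share 0.838) and col6a6 in 24 months replicate 4 (104 CPM against 62.1 to 70.3 CPM in the others, share 0.756). It was the low one for cyp26a1 in 24 months replicate 1 (8.50 CPM against 27.5 to 43.7 CPM in the others, share 0.716), col6a6 in 6 months replicate 3 (33.9 CPM against 41.9 to 45.3 CPM in the others, share 0.725), cox6b1 in 6 months replicate 3 (13.0 CPM against 17.2 to 18.8 CPM in the others, share 0.752) and gpd1a in 24 months replicate 3 (5.84 CPM against 10.8 to 12.1 CPM in the others, share 0.836).

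For 23 of the 24 gene IDs with the highest and lowest differences in skin, the difference of 24 and 6 months was another one in brain (edgeR test of the interaction, adjusted over 24756 genes). The genes were chosen for their difference in skin, which in part fixes this. The difference in skin minus that in brain, on the log2 scale, was egr2a 3.19, fosb 4.53, jdp2 3.84, THRSP 5.53, cyp26a1 3.24, foxq1b 3.08, odc1 3.09, fosl1a 2.58, klf4a 3.23, psat1 2.56, cdkn1a 2.32 and cyp26c1 2.36 for the genes that were higher in skin. For the genes that were lower in skin it was plekhs1 -4.36, ponzr10 -4.08, plekhf1 -3.49, ogfrl2 -4.14, ogfrl2 -3.46, fbxo32 -2.40, grk5 -2.73, SI -3.93, cry2a -0.83, wisp1a -2.59 and cry5 -1.15. The libraries of brain of 6 months were pools of 2 fish.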

How the results depend on the processing

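Of the 87 genes taken by the rule, 69 were called in all 19 other settings, ca15c in the 18 that tested it, 17 were not called in at least 1, and 0 changed sign. The rule chose these genes from the same libraries by their differences or p, which in part fixes these counts. Those not called with replicates 3, 4 and 5 of 6 months left out included egr2a, fbxo32, SI, sirt1, ca8, col6a6, cpt1a, rps27.2 and rpl34. With replicates 3, 4 and 5 of 6 months left out, 2554 genes were called, 1255 higher and 1299 lower, from a fit with 2 libraries at 6 months. Scaling by library size alone gave 3878 higher and 1377 lower. With 1 library left out, 3449 to 4165 genes were called, 1802 to 2230 higher and 1647 to 2034 lower. Without replicates 1 and 2 of 6 months, 2850 of the calls were shared with the 4524, and without replicates 3, 4 and 5 of 6 months 1967. The median difference of complement and acute phase genes was 2.08, and with 1 library left out -0.64 to 2.94. The lowest value was that without 24 months replicate 3, the library with high liver genes, and the highest that without 6 months replicate 3. The median of clock genes was -0.24, and 0.0235 with replicates 3, 4 and 5 of 6 months left out. The causes were not tested. No paired analysis was possible because no fish gave a skin library at both ages and the labels give no shared replicate number.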
